A study of Arabidopsis thaliana with 14 samples.

Results

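The response of Arabidopsis thaliana roots to 24 h without iron was measured by setting the 2 arrays labelled as 24 h of iron deficiency against the 2 arrays labelled as standard conditions, 4 of the 14 arrays of a time course. The rule takes all 22746 probe sets that are not array controls, and 13648 of them lay above a filter on low signal and were tested. All plants were of the Columbia ecotype, and seedlings of both groups grew for 5 days on standard medium. The iron-deficient group was then kept for 24 h on a medium in which the iron source was replaced by Ferrozine at 0.3 mM, a chelator of ferrous iron. The standard group was moved to fresh standard medium and harvested 3 h later, so the groups differ in the time since transfer as well as in iron. The 3 h iron-deficient group has the same interval after transfer as the standard group, and the 12 h group is the nearest earlier time, so both are used here as further comparisons. Each array held RNA from whole roots of about 320 plants in 1 of 2 biological replicates. A lower signal in such a sample can come from fewer cells of a type or from less RNA per cell, and these cannot be told apart.

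Iron in soil is mostly insoluble ferric iron. Arabidopsis roots reduce ferric iron at the cell surface, import ferrous iron, and secrete coumarins, phenolic compounds that bind and mobilise it. A cascade of basic helix-loop-helix (bHLH) transcription factors, with small IMA peptides and iron-binding ubiquitin ligases as further regulators, sets the level of these genes. Iron itself is needed for heme and for iron-sulfur clusters, and so for respiration, photosynthesis and the heme-containing peroxidases of the cell wall.

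The median signal of the 4 arrays was between 88.1 and 91.9. Across the tested probe sets, the log2 values of the replicates correlated at 0.965 on standard medium and at 0.977 at 24 h. The arrays of 48 and 72 h, which share the estimate of the spread, stood apart from the other 10 on the 18 spike-in probe sets, with a geometric mean of 378 to 440 against 2172 to 3232. Results that lose their call in a fit of the other 10 arrays alone are named as such. The reference genes GAPC2, SAND, TIP41L and UBC21 differed from standard medium by −0.04, 0.08, −0.19 and 0.46 on the log2 scale, and limma called 0 of these 4, with 1 at an unadjusted p under 0.05. The green tissue markers RCA and LHCB4.1 stood at 0.42 and 0.32, with signals of 265 to 409 on standard medium, and were not called. The samples labelled as roots thus gave signal for 2 genes of green tissue.

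At 24 h, 220 probe sets were higher and 274 lower than on standard medium at an adjusted p under 0.05, which is 1.61% and 2.01% of those tested and 3.62% together. The median of the called rises was 1.19 and that of the called falls −1.10 on the scale of log2(signal + 16), while the median over all tested probe sets was 0.02. Called changes of at least 4-fold numbered 33 among the rises and 16 among the falls. Of the 494 called probe sets, 238 were paired with 1 gene, 114 of them higher and 124 lower. With the 10 arrays of standard medium to 24 h alone, the count was 371 (2.72%), made up of 152 rises (1.11%) and 219 falls (1.6%), and 366 of these also stood in the larger set. The split between the directions depended on single arrays. Leaving out the first 24 h array gave 117 higher and 186 lower, leaving out the second 24 h array gave 131 and 122, and leaving out the first standard array gave 172 and 138.

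**Figure D1:**
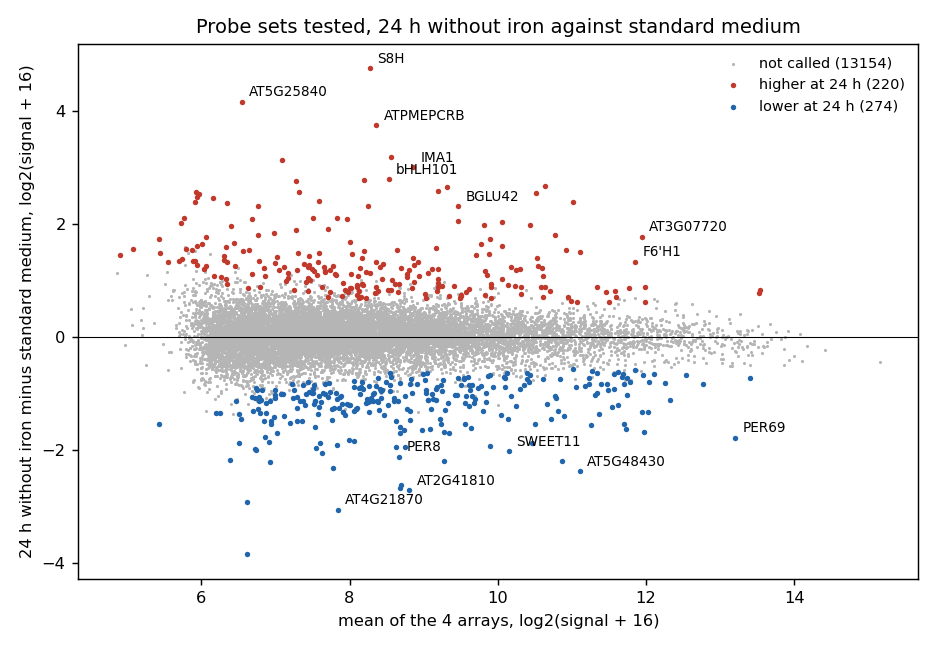
Difference between 24 h without iron and standard medium on the log2(signal + 16) scale (vertical) against the mean of the 4 arrays on the same scale (horizontal), 1 point per tested probe set. The 220 higher probe sets are in red, the 274 lower in blue and the others in grey, and S8H is the highest point at 4.76.

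Genes of coumarin synthesis and secretion rose, with S8H ahead of all other named genes. Of 17 listed genes for iron uptake and coumarin secretion, 5 had a tested probe set. Of these 5, 4 were higher than on standard medium and 0 lower, beside 1.61% and 2.01% of all tested probe sets. Their median difference, which is the value of the metal transporter gene MTP8, was 1.91 on the log2 scale, against 0.02 over all tested probe sets. The main root iron importer and ferric reductase genes are among those not analysed here.

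S8H (AT3G12900) encodes the hydroxylase that turns scopoletin into fraxetin, a coumarin that mobilises iron. Its signal was 33.0 and 56.5 in the 2 standard replicates and 1577 and 1613 in the 2 replicates of 24 h. This is a log2 difference of 4.76 ± 0.36 (SE, adjusted p = 4.27e-08). The signal of 33.0 lay below the filter level of 49.6. F6'H1 (AT3G13610), whose product makes the precursor of scopoletin, had signals of 2507 and 2148 on standard medium and of 5205 and 6573 at 24 h. Its rise of 1.33 ± 0.24 had an adjusted p of 0.0017. Without replicate 2 of 24 h that p was 0.0522. COSY (AT1G28680), the enzyme that closes the coumarin ring, had signals of 797 and 858 against 1139 and 1192. Its difference of 0.49 ± 0.16 did not pass the test (adjusted p = 0.13). The 3 enzymes in sequence thus differed from standard medium by 1.33, 0.49 and 4.76.

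BGLU42 (AT5G36890) encodes a beta-glucosidase that frees coumarins from their sugar before secretion. It was nearly equal in the standard replicates, at 298 and 305, and reached 1253 and 1938 at 24 h. Its rise was 2.31 ± 0.19 on the log2 scale (adjusted p = 2.21e-07). MTP8 (AT3G58060), a transporter that moves manganese into the vacuole, rose by 1.91 ± 0.29 from 129 and 64.1 to 294 and 508 (adjusted p = 0.000408). UGT72E1, a glucosyltransferase of phenylpropanoid aldehydes, was higher by 1.08 (adjusted p = 0.00527). It was the 1 called member of 28 tested UDP-glycosyltransferases, close to the 3.62% called over all tested probe sets. The call was lost without standard replicate 2 or replicate 2 of 24 h. The median of that family was −0.25. F6'H2, a relative of F6'H1, stood at −0.66 and was not called (adjusted p = 0.217).

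Among regulators, the peptide gene IMA1 and the bHLH gene bHLH101 rose furthest. Of 11 tested probe sets for 10 iron regulators, 5 were higher and 0 lower, beside 1.61% and 2.01% of all tested probe sets. The median of the 11 was 0.72. IMA1 (AT1G47400) encodes a short peptide that promotes iron uptake, and its signal went from 181 and 120 on standard medium to 1232 and 1374 at 24 h. The log2 difference was 3.01 ± 0.20 (adjusted p = 1.08e-08). bHLH101 (AT5G04150), one of the factors that act with FIT to switch on the uptake genes, went from 148 and 104 to 1029 and 885. The rise of 2.79 ± 0.20 had an adjusted p of 1.98e-08. For both genes the groups were separated by several times the gap between replicates.

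PYE (AT3G47640), a bHLH repressor of genes for iron movement, had signals of 239 and 107 on standard medium and 413 and 491 at 24 h. It rose by 1.40 ± 0.26 (adjusted p = 0.0021), a call lost without standard replicate 2 (0.0534) or replicate 2 of 24 h (0.0503). BTSL2 (AT1G18910), an iron-binding ubiquitin ligase that limits the response, rose by 0.87 ± 0.17 from 326 and 318 to 587 and 618 (adjusted p = 0.00309). Its relative BTSL1 (AT1G74770) was measured by 2 probe sets that do not give the same call. The brighter one went from 1054 and 945 to 2314 and 2359, a rise of 1.21 ± 0.15 (adjusted p = 3.77e-05). The dimmer one went from 120 and 147 to 212 and 247, a difference of 0.72 ± 0.23 with an adjusted p of 0.101. The upstream bHLH factors did not pass the test. ILR3, bHLH104, bHLH115, bHLH34 and bHLH121 stood between −0.24 and 0.26, with adjusted p-values of 0.645 to 0.993. Activators higher in the cascade were thus within the spread of the arrays, while bHLH101, IMA1 and the negative regulators PYE and BTSL2 were above it.

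**Figure D2:**
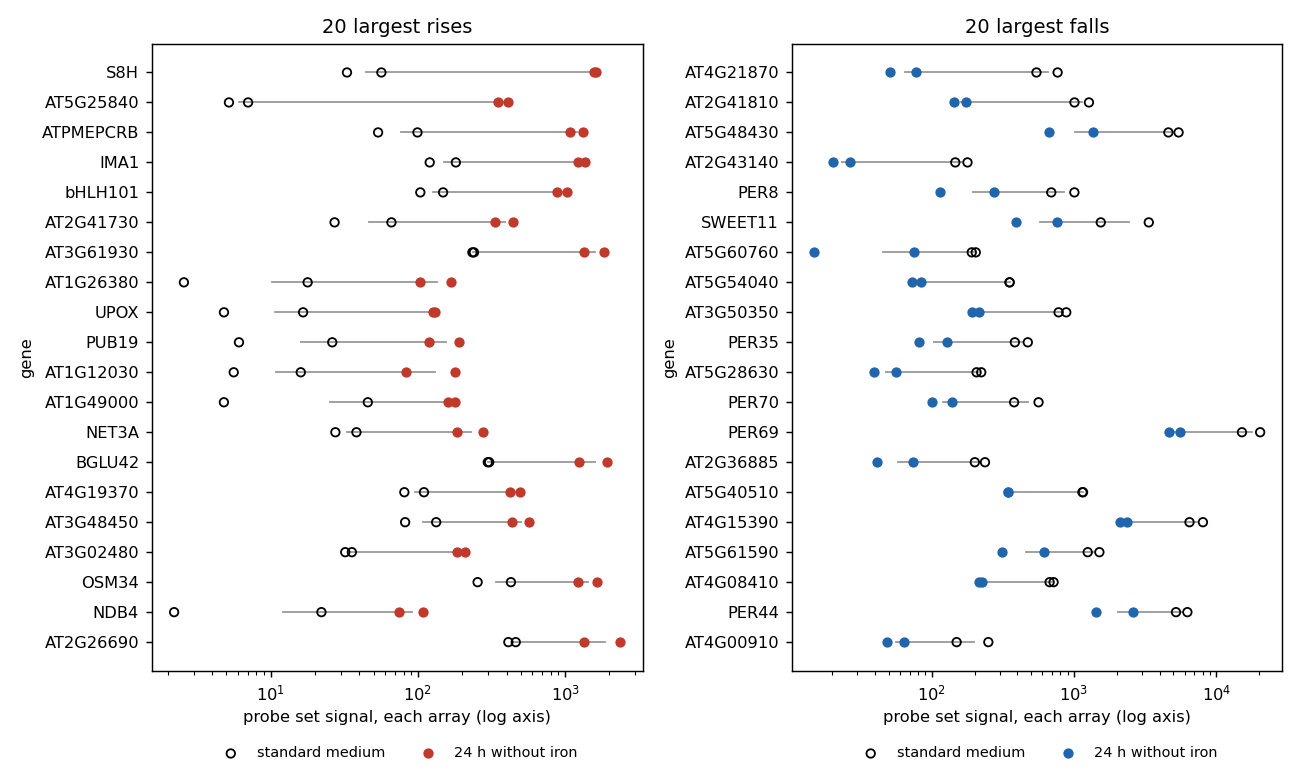
Signal on each array (horizontal, log axis) of the genes with the 20 largest rises (left) and the 20 largest falls (right), with open circles for the 2 standard arrays, filled circles for the 2 arrays of 24 h and a line joining the group means. In every gene shown both 24 h arrays lie on the same side of both standard arrays, as the choice of these genes requires.

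Several large rises lay outside the iron gene lists used here. AT5G25840, whose product is of unknown function, had signals of 7.02 and 5.21 on standard medium and 352 and 412 at 24 h, a log2 difference of 4.17 ± 0.24 (adjusted p = 2.79e-09). Both standard signals lay below the filter level of 49.6, so the size of the difference is not well measured. It is one of 9 among the 20 largest rises with both standard signals below that level, which passed the filter through brighter arrays. ATPMEPCRB (AT4G02330) encodes a pectin methylesterase, an enzyme that modifies cell wall pectin. It rose from 99.4 and 53.7 to 1076 and 1315, a difference of 3.75 ± 0.22 (adjusted p = 2.79e-09). The other tested gene of pectin methylesterases, PMEPCRF, was at −0.13. AT3G61930 rose by 2.65 from 235 and 240 to 1349 and 1840, with standard replicates that were almost the same. AT3G07720, a kelch-repeat protein gene named after its values were seen, rose by 1.77 ± 0.17 (adjusted p = 1.26e-06).

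Other genes among the 20 largest rises have roles in transport and stress. AT2G26690 (NPF6.2), a nitrate transporter gene, rose by 1.99 from 462 and 412 to 2368 and 1336. OSM34, an osmotin gene, rose by 2.05 from 429 and 254 to 1657 and 1215. AT3G02480, a late embryogenesis abundant protein gene that responds to abscisic acid, rose by 2.09 from 35.6 and 32.1 to 185 and 207. Its standard signals lay below the filter level of 49.6, which it passed through brighter arrays, so the size of its rise is not well measured. The adjusted p-values of these 3 genes were 5.48e-06, 1.05e-05 and 4.53e-05. PUB19, a ubiquitin ligase gene, and NET3A, which encodes an actin-binding protein, rose by 2.46 and 2.32, and their standard signals were at most 38.2. PUB19 was the 1 called member of 7 tested plant U-box genes, beside 3.62% of all tested probe sets. Both its standard signals lay below the filter level of 49.6, which it passed through brighter arrays. This count is therefore given as a description. AT1G12030 (2.39), AT1G49000 (2.37), AT3G48450 (2.09) and AT4G19370 were also among the 20.

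Of 13 listed genes that respond to disturbed mitochondria, 5 were tested and 4 were higher than on standard medium, beside 1.61% of all tested probe sets. With the 10 arrays alone or without replicate 2 of 24 h, 2 were. The standard signals of UPOX and NDB4 lay below the filter level of 49.6, and AT2G41730 and AT12CYS-2 had 1 standard array each below it. These genes passed the filter through the arrays on which they were bright, so the count and the list median of 2.01 are given as a description. AT2G41730 rose from 27.2 and 66.1 to 336 and 444, by 2.76 ± 0.31 (adjusted p = 9.93e-06). UPOX (AT2G21640), a marker of oxidative stress, rose from 16.6 and 4.82 to 130 and 127, by 2.47 ± 0.42 (adjusted p = 0.00105). Both had signals of at most 66.1 on standard medium. NDB4, an alternative NADH dehydrogenase of mitochondria, was at 2.21 and 22.1 against 74.6 and 109. Its rise of 2.01 (adjusted p = 0.00413) was lost with the 10 arrays (0.085), without standard replicate 1 (0.095) and without replicate 2 of 24 h (0.0928). AT12CYS-2 rose by 1.54 (adjusted p = 0.0369), with an adjusted p of 0.12 with the 10 arrays and 0.458 without standard replicate 2. GSTU25, a glutathione S-transferase gene, was at 0.77 and did not pass (adjusted p = 0.0949). Of 9 tested tau class glutathione S-transferases, limma called 0. At an unadjusted p under 0.05 there were 4, beside 1917 of all 13648 tested probe sets.

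Of 10 tested genes of mitochondrial electron transport, 2 were lower and 0 higher, beside 2.01% and 1.61% of all tested probe sets. Their median was −0.05, against 0.02 over all tested probe sets. CYTC-2, a cytochrome c gene, fell by 0.89 (adjusted p = 0.016) and SDH2-2, an iron-sulfur subunit of succinate dehydrogenase, fell by 0.64 (adjusted p = 0.0304). Both lost their calls when any 1 of the 4 arrays was left out, and SDH2-2 stood at 0.0687 with the 10 arrays. The other tested subunit gene, SDH2-1, stood at −0.56 (adjusted p = 0.163).

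Of 3 tested members of a list of heme and iron-sulfur enzymes, SIR and SAPX were lower and 0 were higher, beside 2.01% and 1.61% of all tested probe sets. SIR (AT5G04590) is the plastid sulfite reductase, which holds both siroheme and an iron-sulfur cluster. Its signal was 1805 and 1881 on standard medium and 786 and 771 at 24 h, with replicates far closer to each other than the groups. The fall of 1.23 ± 0.18 had an adjusted p of 0.00026. SAPX (AT4G08390), a heme-containing ascorbate peroxidase of plastids and mitochondria, fell by 1.11 ± 0.22 from 957 and 1509 to 553 and 547 (adjusted p = 0.00391). Its call was lost without standard replicate 2, where the adjusted p was 0.0892.

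Class III peroxidases, heme enzymes that are secreted into the cell wall, held the largest number of falls of the lists examined here. Their list is also among the longest. Shorter lists, such as the heme and iron-sulfur list with 2 of 3 tested genes lower, held a larger share. The list of this family, made after the data had been seen, had 37 tested genes, of which 11 were lower and 1 was higher, beside 2.01% and 1.61% of all tested probe sets. The family median was −0.39 on the log2 scale, against 0.02 over all tested probe sets. With the 10 arrays alone 9 were lower, and with 1 of the 4 arrays left out 7 to 10 were. PER69 (AT5G64100) had signals of 20326 and 15145 on standard medium and of 5515 and 4649 at 24 h. It fell by 1.79 ± 0.19 (adjusted p = 3.44e-06). Its neighbour PER70 (AT5G64110) fell by 1.83 from 563 and 379 to 140 and 100.5 (adjusted p = 5.97e-05). In both genes the lower standard array was at least 2 times as bright as the higher 24 h array.

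PER8 (AT1G34510) and PER35 (AT3G49960) fell by 2.12 and 1.91. PER8 went from 1006 and 692 to 115 and 276 (adjusted p = 0.00207), and this call was lost without replicate 1 of 24 h (0.0867). PER35 went from 384 and 473 to 81.1 and 127 (adjusted p = 0.00139). PER44 (AT4G26010) fell by 1.55 from 6262 and 5208 to 1434 and 2615 (adjusted p = 7.46e-05). The other lower members were PER37 (−1.32), PER49 (−1.31), PER45 (−1.03), PER7 (−0.84), PER27 (−0.80) and PER57 (−0.68). PER57 and PER7 were not called with the 10 arrays, at adjusted p-values of 0.0734 and 0.0622. PER49 lost its call without standard replicate 2 (0.139) or replicate 1 of 24 h (0.213), and PER27 without replicate 2 of either group (0.0959 and 0.0952). PER55 (AT5G14130) was the 1 member that rose, by 1.18 from 113 and 139 to 351 and 263 (adjusted p = 0.00218). Without replicate 1 of 24 h its adjusted p was 0.0673. The family was therefore not uniformly lower, and 25 of its 37 tested genes were not called.

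A pair of root hair expansins and a pair of extensin-like genes fell against standard medium, and none of these 4 was called against 3 h. The root hair expansins EXPA18 and EXPA7, wall-loosening proteins of growing hairs, were the 2 tested root hair markers of 8 listed. EXPA18 (AT1G62980) went from 1966 and 1469 to 542 and 752, a fall of 1.39 ± 0.21 (adjusted p = 0.00033). At 3 h without iron it stood at 835 and 908, and the difference between 24 h and 3 h was −0.44 (adjusted p = 0.482). EXPA7 went from 1379 and 824 to 536 and 633, a fall of 0.86 (adjusted p = 0.0291), which was lost without standard replicate 1 (0.445) or either replicate of 24 h (0.259 and 0.0906). Its difference from the 3 h group, at 552 and 690, was −0.08 (adjusted p = 0.96). These 2 genes were therefore lower than on standard medium, and not separable from roots moved to iron-free medium 3 h before harvest. The other 8 tested expansins were not called. AT4G08410, an extensin-like wall protein gene, fell by 1.59 from 718 and 674 to 227 and 215 (adjusted p = 0.000391), and was at 274 and 389 at 3 h. It and AT5G06630 (−1.16, adjusted p = 0.0358) were the 2 lower members of 6 tested extensins, and 0 were higher. Over all tested probe sets 2.01% were lower and 1.61% higher. The median of the 6 extensins was −0.73. The probe sets of AT4G08410 and AT5G06630 carry the suffix _x_at, given where probes can match more than 1 gene, so their falls may not be separate. AT5G06630 lost its call when any 1 of the 4 arrays was left out (adjusted p of 0.0723 to 0.278). Against 3 h, limma called 0 of the 6 extensins, with 1 at an unadjusted p under 0.05, beside 1429 of all 13648 tested probe sets.

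The peroxidases were also compared with the 3 h group. Against 3 h, 273 probe sets were called over the whole array (2%), 138 higher (1.01%) and 135 lower (0.989%), and among the 37 peroxidases 5 were lower and 0 higher. PER69 (−1.70, adjusted p = 8.22e-06), PER37 (−1.24, 0.000343), PER70 (−1.11, 0.0128), PER45 (−1.01, 0.00142) and PER27 (−0.83, 0.00555) were lower than at 3 h. PER8 (−0.96, 0.331), PER35 (−0.93, 0.24) and PER44 (−0.80, 0.0507) were not called there, though their values were close to that of PER27, and no test set these genes against each other. SIR, at −1.06 (0.0015), and SAPX, at −1.19 (0.00284), were lower than at 3 h as well. The 4 raised genes of iron uptake and coumarin secretion were all higher than at 3 h, S8H by 5.16, MTP8 by 2.22, BGLU42 by 1.91 and F6'H1 by 1.61. The comparisons with standard medium and with 3 h share the 24 h arrays.

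AT4G21870 had the largest fall of any named gene. This gene for a small heat shock protein went from 767 and 544 to 77.5 and 51.2, a log2 difference of −3.06 ± 0.27 (adjusted p = 3.53e-07). At 3 h it was still at 597 and 595, and against that group the difference was −2.95 (adjusted p = 7.97e-07). AT2G41810, which encodes a cell wall protein of the DUF642 family, fell by 2.72 from 1007 and 1273 to 175 and 144. It was partly lower at 3 h already, at 516 and 470. AT5G48430, an aspartyl protease gene, fell by 2.38 from 5430 and 4604 to 1356 and 664, and SWEET11, a sucrose exporter gene, by 2.03 from 3352 and 1542 to 755 and 394. The adjusted p-values of these 3 falls were 8.50e-07, 5.11e-06 and 0.000914. SWEET11 was the 1 called gene of 3 tested sugar transporters, beside 3.62% of all tested probe sets.

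Further genes among the 20 largest falls included the bHLH gene AT2G43140 (−2.17), the acyltransferase gene AT4G15390 (−1.69) and the ERF gene AT5G61590 (DEWAX, −1.61), which represses wax synthesis in leaves. AT4G15390 had signals of 8052 and 6479 against 2357 and 2095. AT5G54040 (−1.97), AT3G50350 (−1.95), AT5G28630 (−1.87), AT5G40510 (−1.70) and AT4G00910 (−1.54) were also in this set. AT5G60760 (−2.01) lost its call without replicate 2 of 24 h (adjusted p = 0.114). AT2G36885 (−1.70, adjusted p = 0.0103) lost it with a pseudocount of 1 (0.083) and without either standard replicate (0.0501 and 0.0779) or replicate 2 of 24 h.

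**Figure D3:**
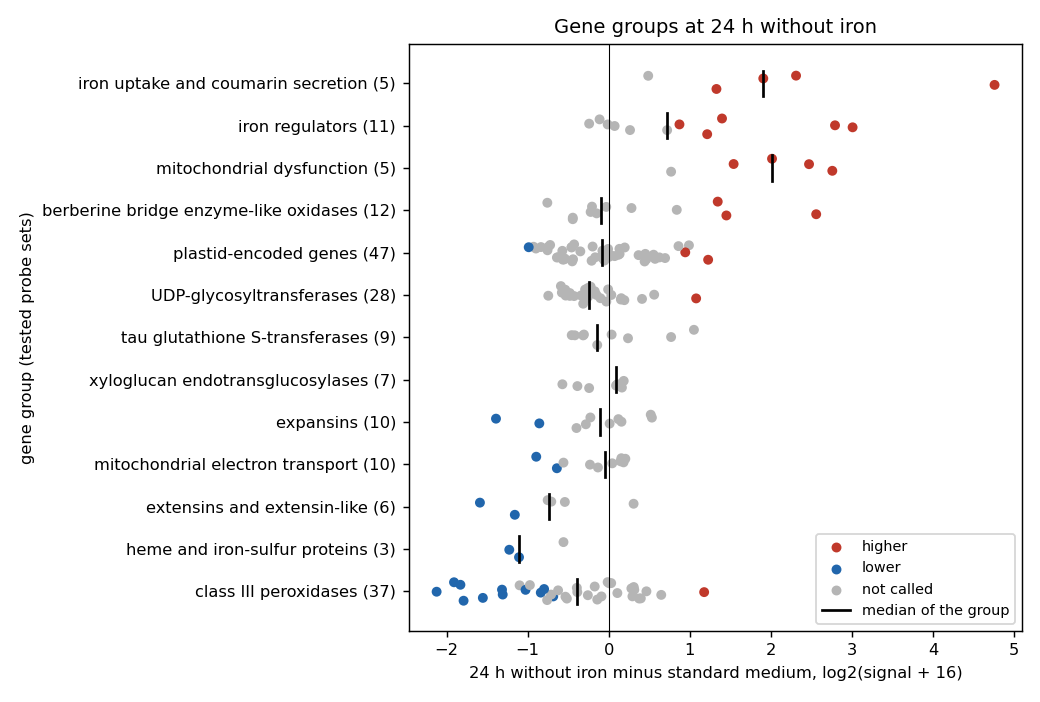
Difference between 24 h and standard medium on the log2(signal + 16) scale (horizontal) for each tested probe set of 13 gene groups (vertical, with the number tested), in red where higher, in blue where lower and in grey where not called, with the group median as a black bar. The iron uptake and coumarin group has its median at 1.91 and the class III peroxidases at −0.39.

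Some raised genes had brighter signals at 12 h than at 24 h. AT1G26380, AT1G26390 and AT1G26410 are neighbouring genes for berberine bridge enzyme-like oxidases, flavoproteins that oxidise small molecules in defence. They were the 3 called members of 12 tested genes of the family, all higher, beside 1.61% of all tested probe sets. The family median was −0.09, and 1 of the 3 was called with the 10 arrays. All 3 had both standard signals below the filter level and passed the filter through brighter arrays. The count of 3 is therefore given as a description. AT1G26380 had signals of 2.57 and 17.8 on standard medium and 167 and 103 at 24 h, a rise of 2.56 ± 0.26 (adjusted p = 3.05e-06). At 12 h it was brighter than at 24 h, at 252 and 332, but the difference of −1.05 was not called (adjusted p = 0.125). AT1G26410 was at 1.51 and 2.75 on standard medium and 35.4 and 31.7 at 24 h, all below the filter level, which it passed through other arrays. It was called at 1.45 and AT1G26390 at 1.34, with adjusted p-values of 0.185 and 0.107 with the 10 arrays, and both lost their calls without either replicate of 24 h. The peptide gene RALFL27 rose by 1.36 (adjusted p = 0.0253) and had higher signals at 12 h, at 194 and 193, than at 24 h, at 99.9 and 123, a difference of −0.72 that was not called (adjusted p = 0.66). Without standard replicate 1 its adjusted p was 0.444. RALFL31 (0.88) was also higher and RALFL22 (−0.75) lower among 7 tested RALF genes, beside 1.61% and 2.01% of all tested probe sets. Both lost their calls without standard replicate 1 (0.263 and 0.186) or either replicate of 24 h, and RALFL31 also with the 10 arrays (0.103).

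Against 12 h, 51 probe sets were called (0.374%), 44 higher (0.322%) and 7 lower (0.0513%), so the calls between these times were mostly rises. With the 10 arrays there were 28 (0.205%), and without replicate 2 of 24 h there were 10. S8H went from 323 and 186 at 12 h to 1577 and 1613, a rise of 2.62 (adjusted p = 0.00074). ATPMEPCRB rose by 2.49 from 217 and 183 (adjusted p = 8.46e-06) and AT5G25840 by 2.42 from 54.7 and 62.2 (adjusted p = 2.44e-05). AT3G02480 was at 22.1 and 21.6 at 12 h, no higher than on standard medium, and rose by 2.48 by 24 h (adjusted p = 5.35e-05). Its 12 h signals were below the filter level of 49.6, so the size of that rise is not well measured. UPOX rose by 2.03 over the same interval, but its 12 h replicates were unlike, at 42.1 and 5.54, and its adjusted p of 0.0321 became 0.292 with the 10 arrays. The 1 fall that the naming rule gives between these times was in AT3G20510, from 862 and 1011 to 544 and 489, by 0.84 (adjusted p = 0.0233), which was not called with the 10 arrays (0.0818). By contrast OSM34 (0.04) and NPF6.2 (0.26) stood at nearly the level of 12 h and were not called.

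**Figure D4:**
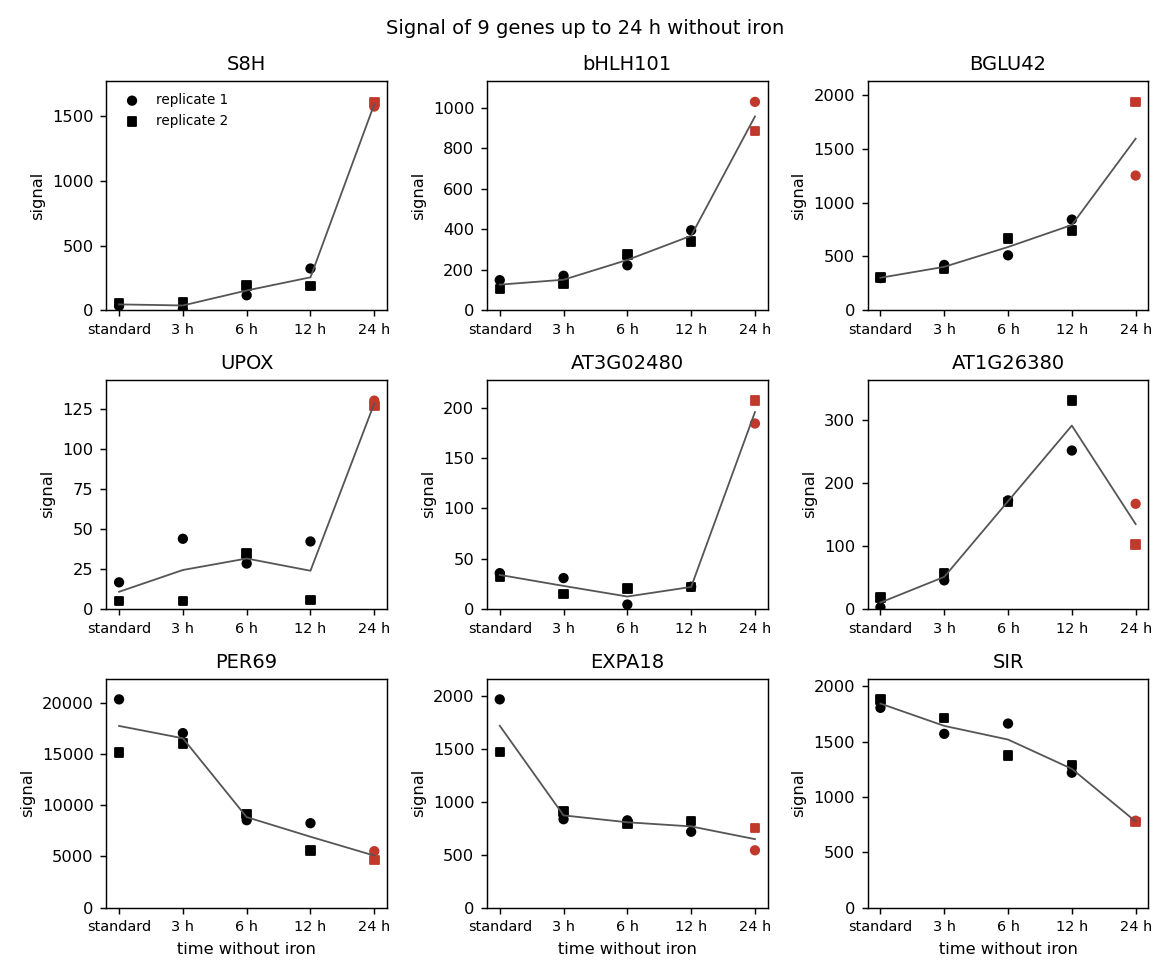
Signal (vertical, linear, from 0) of 9 genes on standard medium and after 3, 6, 12 and 24 h without iron (horizontal, not to scale in time), with a circle for replicate 1, a square for replicate 2, the 24 h arrays in red and a line through the means. AT1G26380 has its highest mean at 12 h, S8H and AT3G02480 have theirs at 24 h, and EXPA18 is already at 835 and 908 at 3 h.

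Of 5 tested genes of gibberellin signalling, 2 were lower and 0 higher, beside 2.01% and 1.61% of all tested probe sets. The receptor gene GID1B fell by 1.09 from 494 and 479 to 231 and 210 (adjusted p = 0.000627). SLY1, the F-box protein that removes DELLA repressors, fell by 0.85 (adjusted p = 0.00524), a call lost without standard replicate 1 (0.0783) or replicate 2 of 24 h (0.0848). The other receptors GID1A (0.24) and GID1C (0.32) were not called. Of 4 listed genes of auxin-conjugating GH3 enzymes, a list made after the data had been seen, 2 were tested. Both were higher, beside 1.61% of all tested probe sets, and with the 10 arrays 1 was. GH3.17 and GH3.3 rose by 0.90 (adjusted p = 0.00173) and 1.13 (adjusted p = 0.0459). GH3.3 was not called with the 10 arrays (0.0856), nor without either standard replicate or replicate 1 of 24 h.

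The remaining families held few calls. Of 47 tested plastid-encoded genes, 2 were higher and 1 lower, beside 1.61% and 2.01% of all tested probe sets. Their median was −0.08, and the number higher changed when 1 array was left out. The called genes were rpoA (1.23) and rps3 (0.94), which rose, and rbcL (−0.99), which fell. Each lost its call without standard replicate 1 or either replicate of 24 h, and rbcL also without standard replicate 2. Of 11 tested genes with a CYP symbol, only CYP718 was lower (−1.34, adjusted p = 0.038), beside 2.01% of all tested probe sets. These 11 were matched by symbol and include the cyclophilin genes CYP71 and CYP59 beside cytochrome P450 genes. Its call was lost when any 1 of the 4 arrays was left out. The median of these 11 was −0.32, which is the value of CYP71, and 9 of the 11 lay below 0. They are therefore not a measure of the cytochrome P450 family alone. None of 15 trichome birefringence-like genes, 7 xyloglucan endotransglucosylase genes or 5 WRKY genes was called by limma, and their medians were −0.20, 0.09 and −0.05. The numbers at an unadjusted p under 0.05 were 2, 1 and 0, beside 1917 of all 13648 tested probe sets.

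Of the called probe sets, 246 of 494 had no gene in the platform table used here, a share of 49.8% beside 44.1% of all tested probe sets. Among them 259632_at rose by 3.18 from 175 and 66.1 to 1149 and 1091, and 253502_at by 3.14 from 42.2 and 20.0 to 368 and 406. The probe set 260623_at fell by 3.85 from 440 and 290 to 8.05 and 11.7, which is further than any named gene, and 257823_at fell by 2.68 from 859 and 1206 to 223 and 93.1.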

How the data were processed

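The authors used MAS5 to obtain one linear intensity per probe set and array, per the submitters' processing notes, with a version not given in the sources used here. These deposited intensities were already scaled, since the mean after trimming 2% at either end was equal on all 14 arrays, and no further scaling was applied. After the transformation log2(signal + 16), which understates changes of dim genes, the dimmest 40% by mean were dropped (below a signal of 49.6). For the remaining 13648, limma 3.58.1 (R 4.3.3) fitted group means to all 14 arrays, with 7 residual degrees of freedom and a variance trend. Benjamini-Hochberg adjustment was applied per comparison, with calls under 0.05.

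The platform's annotation paired 13513 of the 22810 probe sets with 1 gene, 503 with several and 8794 with none. Named are the 20 largest rises and 20 largest falls among called probe sets with 1 gene and no overlap between the groups, 5 each way against 12 h (1 fall passed), and members of the gene lists. Members and lists were chosen with earlier results of these data known. In 3 simulations of 24 h against standard medium on 13648 probe sets, the fit found 46% to 65% of 100 2-fold changes and 93% to 98% of 100 4-fold changes, and made 4 to 11 false calls. The number of arrays limits the precision. Alternatives covered normalization, pseudocount, filter, prior, arrays fitted, a replicate block and each array left out.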

Additional observations from a re-analysis of the deposited data

Results flagged for a closer look

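For 16 probe sets of named genes, the 24 h level differed from the 12 h level by a direct test with limma. Over all tested probe sets 51 were called (0.374%), and the standard arrays cancel out of this difference. S8H, ATPMEPCRB, AT3G02480, AT5G25840, UPOX and AT3G20510 were named by this same comparison. Most of the others were named for large rises on the same 24 h arrays. The count of 16 is therefore given as a description. The 24 h value exceeded the 12 h value on the log2 scale by 2.62 for S8H, 2.49 for ATPMEPCRB, 2.48 for AT3G02480 and 2.42 for AT5G25840. The excess was 2.03 for UPOX and for NDB4, 1.57 for AT2G41730, 1.36 for MTP8 and 1.33 for GSTU25. It was 1.34 for bHLH101, 1.22 for IMA1, 1.12 for AT3G61930, 1.07 for AT4G19370, 0.96 for BGLU42 and 0.75 for the brighter probe set of BTSL1. AT3G20510 was lower at 24 h than at 12 h, by −0.84.

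With the 10 arrays of standard medium to 24 h alone, S8H, ATPMEPCRB, AT3G02480, AT5G25840, IMA1, bHLH101, AT3G61930 and GSTU25 were still called, at adjusted p-values of 0.000319 (ATPMEPCRB) to 0.0387 (GSTU25). The others were not, at 0.0818 (AT3G20510) to 0.397 (NDB4). GSTU25 was not called against standard medium. Its 12 h replicates were 239 and 539, below and close to the standard signals of 568 and 510.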

How the results depend on the processing

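Against standard medium, 494 probe sets were called, and with each of the 14 arrays left out in turn the count ran from 253 to 545. The lowest counts were 253 and 303, with the second or the first array of 24 h left out, and 310 with the first standard array left out. A threshold of 2-fold added to the test left 317. Against 12 h the count of 51 ran from 10 to 60 with 1 array left out, the lowest when the second 24 h array was left out. It was 33 with no filter, 23 with no variance trend, 28 with the 10 arrays and 30 with the 4 arrays compared. Against 3 h the count of 273 ran from 143 to 306, with 143 (93 higher and 50 lower) when the second 24 h array was left out and 171 when the first 3 h array was. The replicate numbers were not shown to pair the samples, since deviations of same-numbered arrays from their group means correlated at 0.08 between standard medium and 24 h, 0.13 between 3 and 24 h and −0.07 between 12 and 24 h. With the replicate block the counts were 550, 52 and 315, and all 40 genes of the largest rises and falls stayed called. Leaving out the second standard array gave a split of 233 higher and 220 lower. Over the named probe sets and the alternatives run, 148 calls were lost, 31 gained and 0 reversed in direction. The cause of these shifts was not tested. With 2 arrays a group and changes near 2-fold recovered in part only, an uncalled gene is not shown to be unchanged.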
